A study of Mus musculus with 48 samples.

Results

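The genes described here are 7 transcripts that encode chemokines and receptors known for drawing T cells into tissue: the CXCR3 ligands Cxcl9, Cxcl10 and Cxcl11, their receptor gene Cxcr3, the chemokine gene Ccl5, and Cxcl16 with its receptor gene Cxcr6. They were chosen by name, and all 7 were present among the 36854 genes of the count table and passed the filter on low counts in every fit. They were read in 48 mouse soft-tissue sarcomas. All mice were of the strain 129/SvJae. The 32 primary tumours were started in the gastrocnemius of p53FL/FL mice aged 6 to 10 weeks by an adenovirus carrying Cre, which deletes p53 in the cells it enters, together with 300 µg of the carcinogen MCA (3-methylcholanthrene). For each of the 16 allografts 50000 cells of line 402230 were placed in the same muscle of a syngeneic mouse, so that all allografts stand for 1 tumour line. Every mouse received 200 µg of antibody intraperitoneally at a tumour volume of about 150 mm3, either muDX400, an antibody against the inhibitory T cell receptor PD-1, or its isotype control, just before the left hind limb was given 0 or 20 Gy. Tumours were collected on day 3. The resulting 8 groups held 4 allografts each (0 Gy isotype, 0 Gy anti-PD-1, 20 Gy isotype, 20 Gy anti-PD-1) or 8 primary tumours each (the same 4 treatments).

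CXCL9, CXCL10 and CXCL11 are secreted proteins that interferons induce, mainly interferon gamma for CXCL9 and also type I interferon for CXCL10, and all of them bind CXCR3 on activated T cells and NK cells. CCL5 is made by T cells, NK cells, myeloid cells and infected or damaged tissue cells, and draws T cells and monocytes. CXCL16 is made as a membrane-bound protein, often by macrophages and dendritic cells, is shed by proteases, and binds CXCR6, which marks T cells that settle in tissue. In a piece of whole tumour, a higher transcript level through more cells of a type and through more RNA per cell cannot be told apart.

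The ligand genes of CXCR3 are neighbours. In the GRCm38 annotation (GENCODE M21) Cxcl9 lay at chr5:92321347-92328079, Cxcl10 at chr5:92346638-92348889 and Cxcl11 at chr5:92359544-92365485, all on the minus strand and within 44.1 kb. Ccl5 (chr11:83525778-83530518) and Cxcl16 (chr11:70453983-70459984) were on the minus strand of chromosome 11, Cxcr3 (chrX:101731535-101734269) on the minus strand of the X chromosome and Cxcr6 (chr9:123806475-123811760) on the plus strand of chromosome 9. The sequences used for the 250 bases before the start site are those of RefSeq (GRCm38.p6), which matched 4 of the 7 genes (Cxcl9, Cxcl10, Cxcr3 and Cxcr6). The promoters of Cxcl9 and Cxcl10 are shown because a relation to Ifng across tumours, described further on, passed for Cxcl9 and not for its neighbour Cxcl10. They are written 5′ to 3′ along the transcribed strand, and capitals mark matches to the core of an interferon-stimulated response element (GAAANNGAA) or to a kappaB element (GGGANTTCC), searched on both strands together with the gamma-activated site TTCNNNGAA.
Cxcl9, chr5:92328080-92328329, minus strand: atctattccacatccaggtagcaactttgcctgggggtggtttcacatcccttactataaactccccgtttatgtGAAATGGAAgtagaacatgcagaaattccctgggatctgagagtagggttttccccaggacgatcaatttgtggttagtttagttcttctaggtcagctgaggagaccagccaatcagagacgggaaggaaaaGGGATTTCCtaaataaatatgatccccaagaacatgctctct
Cxcl10, chr5:92348890-92349139, minus strand: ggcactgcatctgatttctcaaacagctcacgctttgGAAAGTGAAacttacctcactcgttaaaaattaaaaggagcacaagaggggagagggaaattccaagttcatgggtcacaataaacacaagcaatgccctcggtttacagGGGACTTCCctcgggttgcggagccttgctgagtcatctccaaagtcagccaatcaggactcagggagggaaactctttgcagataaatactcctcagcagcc
Cxcl10 held the response element letters GAAAGTGAA at -213 to -205 and the kappaB letters GGGACTTCC at -103 to -95 from the start site. Cxcl9 held GAAATGGAA at -175 to -167 and the kappaB letters GGGATTTCC at -42 to -34, and no matches overlapped. The letters of the gamma-activated site were in none of the 4 windows, and Cxcr3 and Cxcr6 held none of the 3 motifs. Among 32851 promoters of the same length, 7.13% held the response element core, 7.02% the gamma-activated site and 1.43% the kappaB element.

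Sequencing depth was 31.8 to 54.0 M counts per tumour (M, mega; median 41.2). Levels are given in counts-per-million (CPM) after TMM scaling, and per kb of exon where genes are set against each other. Differences are log2 fold changes from edgeR's quasi-likelihood test with SE, and a gene was called when its Benjamini-Hochberg adjusted p over all genes tested was below 0.05. Primary tumours varied more, with a biological coefficient of variation of 0.5 against 0.375 in the allografts. The first digit of the tumour identifiers in the labels was 5 in 4 of 4 allografts given 0 Gy and isotype, 4 in 3 of 4 allografts given 20 Gy and isotype, and 4 in at least 7 of 8 tumours of each primary group. What the digit stands for is not stated. Markers of T cells, NK cells, cDC1 dendritic cells, macrophages and muscle were detected in every group, with no listed gene at 0 in all tumours of a group.

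In untreated tumours, those given 0 Gy and isotype, Cxcl9, Cxcl10, Cxcl16 and Ccl5 were well above both receptors in median level per kb, whereas Cxcl11 was near them. In the allografts the median level per kb fell in the order Cxcl9 (134.8 CPM per kb), Cxcl10 (66.3), Cxcl16 (62.9), Ccl5 (31.0), Cxcl11 (4.80), Cxcr6 (3.96) and Cxcr3 (2.37). Cxcl9 was the highest member per kb in 3 of the 4 tumours and Cxcl16 in the other one, while Cxcr3 was the lowest in 4 of 4. In the primary tumours Cxcl16 (32.5 CPM per kb), Cxcl10 (28.6) and Ccl5 (27.3) lay close together and above Cxcl9 (11.4), Cxcr3 (1.299), Cxcl11 (0.889) and Cxcr6 (0.640). The highest member was Cxcl16 in 4, Cxcl10 in 3 and Ccl5 in 1 of these 8 tumours, so the order of the leading chemokines was not shared by the tumours.

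**Figure D1:**
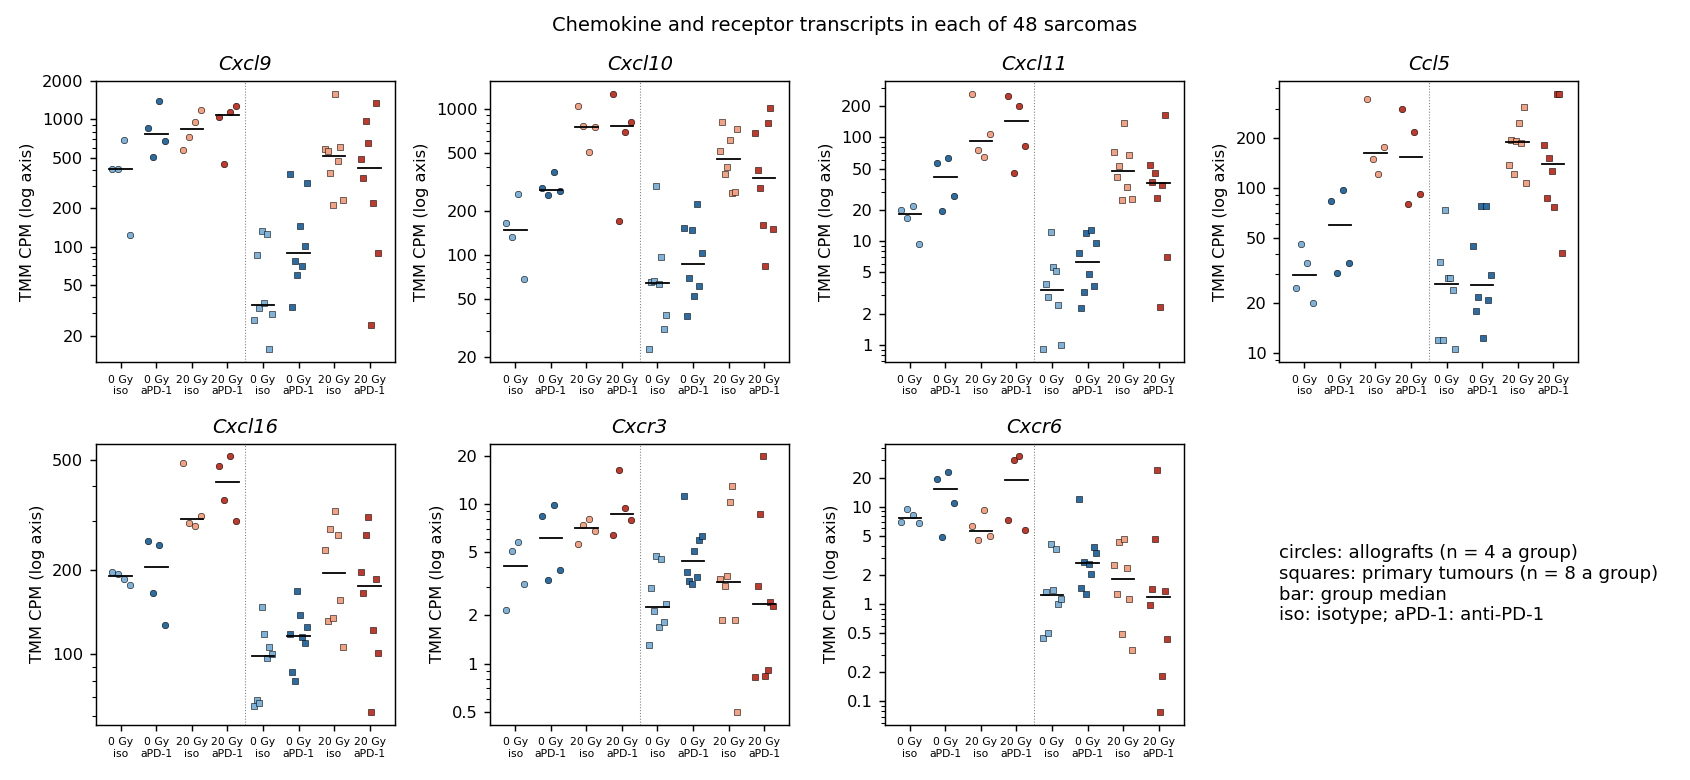
Level of each chemokine and receptor gene in each tumour (vertical log axis, TMM CPM), by group, with circles for allografts (4 a group), squares for primary tumours (8 a group) and a bar at the group median. Cxcl10, Cxcl11, Ccl5 and Cxcl16 are higher at 20 Gy in both kinds of tumour under isotype, with overlap between doses for Cxcl10 and Cxcl16 in the primary tumours. Cxcr3 and Cxcr6 overlap between 0 and 20 Gy in both kinds.

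The comparison of 20 Gy with 0 Gy under isotype is of radiation alone at day 3, but in the allografts dose and the identifier digit were largely confounded. In the allografts the ligands Cxcl10, Cxcl11, Ccl5 and Cxcl16 rose and Cxcl9, Cxcr3 and Cxcr6 did not pass the test. That is 4 of 7 members called, all higher, where 4.4% of the 17746 genes tested were called higher. The median log2 fold change of the 7 was 1.11, beside -0.0019 over all genes.

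Cxcl10, a type I and type II interferon-inducible CXCR3 ligand, was at 166.5, 131.98, 261.8 and 68.2 CPM in the 4 allografts given 0 Gy and at 1052, 763.5, 503.5 and 747.9 CPM in the 4 given 20 Gy. Every irradiated tumour lay above every unirradiated one, and the rise was 4.94-fold (log2 2.30, SE 0.49, adjusted p 0.0145). Cxcl11, the least abundant of the CXCR3 ligands, was at 19.9, 16.5, 21.997 and 9.30 CPM against 262.9, 75.4, 64.6 and 107.05 CPM. Its irradiated tumours were likewise all higher, by 7.59-fold (log2 2.92, SE 0.58, adjusted p 0.00987). Ccl5 moved from 24.7, 45.9, 34.9 and 19.9 CPM to 345.8, 148.8, 120.8 and 175.8 CPM, a 6.38-fold rise (log2 2.67, SE 0.51, adjusted p 0.0077) with no overlap. For Cxcl10, Cxcl11, Ccl5 and, below, Cxcl16 the same irradiated tumour, number 1, was the highest.

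Cxcl16 was nearly uniform in the unirradiated allografts, at 196.3, 193.7, 186.2 and 177.2 CPM, and stood at 485.9, 296.5, 288.4 and 313.6 CPM after 20 Gy. The rise was smaller, 1.86-fold (log2 0.90, SE 0.23, adjusted p 0.0351), again without overlap. Groups without overlap in the higher direction made up 9.59% of all genes tested in this comparison. Cxcl9, the CXCR3 ligand most tied to interferon gamma, was at 405.3, 408.1, 694.1 and 122.96 CPM without and 580.4, 730.3, 951.6 and 1187 CPM with radiation. The groups overlapped in 1 unirradiated tumour, and the difference of 2.16-fold (log2 1.11, SE 0.47) did not pass (adjusted p 0.213).

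The receptors were much lower and overlapped between doses. Cxcr3 was at 2.17, 5.04, 5.76 and 3.16 CPM at 0 Gy and 5.61, 7.38, 8.08 and 6.71 CPM at 20 Gy, a log2 difference of 0.81 with a 95% interval from -0.019 to 1.64 (adjusted p 0.287). Cxcr6 was at 6.97, 9.58, 8.33 and 6.82 CPM against 6.37, 4.59, 9.40 and 4.99 CPM, a log2 difference of -0.30 with an interval from -1.42 to 0.83. For neither receptor does the interval exclude a change in either direction.

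Among the partners, Ifng, which encodes interferon gamma, differed by 0.92 on the log2 scale (adjusted p 0.413). Of 15 inducer genes 5 were called higher, among them Irf9, Stat2 and Ifnar2. Of 14 other lymphocyte-attracting chemokines tested only Ccl4 was called, of 14 other receptors none, and of the 7 proteases and scavengers that act on these chemokines none, by edgeR. None of 14 T cell genes was called, with a median log2 fold change of 0.09. Cd3e, which encodes a chain of the T cell receptor complex, differed by -0.04 (adjusted p 0.977) and Cd8a by 0.12. The NK cell receptor gene Ncr1 rose 2.35-fold (adjusted p 0.047) and 2 of 6 NK genes were called. Of 10 macrophage genes 2 were called (Fcgr1 and Cd68), and their summed level was 1717 to 2593 CPM at 0 Gy and 3073 to 4931 CPM at 20 Gy. The summed cDC1 level was 76.1 to 171 CPM and 227.4 to 271.6 CPM. These marker levels moved with the chemokines, and their part in the chemokine rise was not tested.

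The allograft calls depended on single tumours and on the identifier digit. When the digit was added to the fit as a term, 0 of the 7 members were called in this comparison, although Cxcl10 (log2 2.05, adjusted p 0.0974), Cxcl11 (2.55, 0.101), Ccl5 (2.40, 0.0753) and Cxcl16 (0.83, 0.198) kept most of their size. Cxcl16 was lost on leaving out 7 of the 8 tumours in turn, Cxcl10 on 3, Cxcl11 on 1 and Ccl5 on none. Without 20 Gy number 1 the log2 fold change of Cxcl11 went from 2.92 to 2.32.

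Radiation under isotype raised all the ligand transcripts in the primary tumours, Cxcl9 included. Cxcl9, Cxcl10, Cxcl11, Ccl5 and Cxcl16 were called higher and the receptors were not, so that 5 of 7 members were called higher where 7.85% of 17770 genes were. The median log2 fold change of the members was 2.55, beside -0.02 over all genes. These 5 calls were made again in each of the 16 fits that left out 1 tumour.

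Cxcl9 had a lowest, median and highest level of 15.7, 34.5 and 132.3 CPM over the 8 unirradiated and 212.0, 516.6 and 1592 CPM over the 8 irradiated primary tumours. The groups did not overlap, and the rise of 9.66-fold (log2 3.27, SE 0.65) had an adjusted p of 0.000986. Cxcl11 went from 0.908, 3.37 and 12.3 CPM to 24.8, 47.6 and 138.6 CPM, also without overlap, for the steepest rise of the 7 members at 13.5-fold (log2 3.76, SE 0.64, adjusted p 0.000209). Ccl5 went from 10.5, 26.2 and 72.9 CPM to 106.7, 190.0 and 310.9 CPM, 6.77-fold (log2 2.76, SE 0.47, adjusted p 0.000209), with every irradiated tumour above every unirradiated one. Separation of this kind in the higher direction was found for 1.5% of all genes tested in the primary tumours.

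Cxcl10 rose 5.84-fold (log2 2.55, SE 0.51, adjusted p 0.00111), from a lowest, median and highest level of 22.7, 64.4 and 295.4 CPM to 267.0, 456.6 and 805.6 CPM. The overlap came from a single unirradiated tumour at 295.4 CPM, number 4, with the next at 97.5 CPM. Without that tumour the log2 fold change of Cxcl10 was 3.19. Cxcl16 rose 2.16-fold (log2 1.11, SE 0.27, adjusted p 0.00542), from 64.9, 98.3 and 147.7 CPM to 106.2, 196.2 and 327.2 CPM, and overlapped. As in the allografts, Cxcl16 had the smallest of the called changes.

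Cxcr3 had a lowest, median and highest level of 1.31, 2.25 and 4.74 CPM at 0 Gy and 0.499, 3.23 and 12.9 CPM at 20 Gy in the primary tumours. The irradiated tumours spread to both sides of the others, and the log2 difference of 0.81 had an interval from -0.39 to 2.01 (adjusted p 0.371). Cxcr6 was at 0.454, 1.24 and 4.197 CPM against 0.340, 1.83 and 4.63 CPM, a log2 difference of 0.33 with an interval from -1.27 to 1.93 (adjusted p 0.812).

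Of the partners in the irradiated primary tumours, Irf1, an interferon-induced transcription factor, rose by 1.51 on the log2 scale (adjusted p 0.000431). Ifng differed 4.88-fold without passing (adjusted p 0.0586), from a median of 0.0688 to 0.615 CPM. Of the 14 other chemokines 6 were called higher, led by Ccl3, Ccl4 and Ccl8, and of 13 other receptors 5, among them Ccr2 and Ccr1. Adam10, which encodes a protease that sheds CXCL16, was the 1 protease called, and it was lower. None of 14 T cell genes was called (median log2 fold change 0.80; Cd3e 0.58, adjusted p 0.598; Cd8a 0.44). Of 10 macrophage genes 4 were called higher, of 6 cDC1 genes 3, of 7 NK genes 1 (Klrk1), of 6 neutrophil genes 1 (Csf3r) and of 5 B cell genes 1 (Pax5), and the mesenchymal gene Vim was lower. Summed macrophage markers ran from 1785 to 3573 CPM at 0 Gy and 2261 to 4513 CPM at 20 Gy, and summed T cell markers from 172.9 to 683.6 and 51.5 to 442.3 CPM. Skeletal muscle transcripts ran from 54.4 to 5288 CPM and 266.4 to 40931 CPM in sum, with 0 of 8 muscle genes called by edgeR. The part of these cell mixtures in the chemokine rise was not tested.

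The same dose was also compared among tumours given anti-PD-1. In the allografts 1 of 7 members, Cxcl16, was called higher, against 3.13% of all genes. Cxcl16 went from 254.5, 165.1, 246.8 and 126.8 CPM to 472.5, 357.7, 512.6 and 299.4 CPM, 2.09-fold with no overlap (log2 1.06, SE 0.23, adjusted p 0.0205). Groups without overlap in the higher direction were 5.83% of all genes here. The Cxcl16 call was lost on leaving out 3 of the 8 tumours in turn (0 Gy number 2 or number 4, or 20 Gy number 3, adjusted p up to 0.0845), with only the 2 groups compared and with all 48 tumours in the fit. Called higher with it were 2 of 10 macrophage genes (Fcgr1 and Cd68), the NK gene Ncr1, the neutrophil gene Csf3r and the receptor gene Ccr2, with 0 of 14 T cell genes. The 8 mesenchymal genes had a median log2 fold change of -0.56 with 0 of them positive and 0 called by edgeR. Summed macrophage markers were at 1346 to 3371 CPM at 0 Gy and 3107 to 6004 CPM at 20 Gy, and the part of these markers in the Cxcl16 rise was not tested. Cxcl11 (log2 1.81, adjusted p 0.0837), Ccl5 (1.49, 0.0999) and Cxcl10 (1.33, 0.131) did not pass by edgeR, and all 3 passed by DESeq2. Cxcl10 was at 286.3, 257.0, 367.4 and 273.9 CPM at 0 Gy and at 1266, 170.1, 699.1 and 814.4 CPM at 20 Gy, so that 1 irradiated tumour, number 2, lay below all unirradiated ones and the other 3 above. That tumour was also the lowest irradiated one of its group for Cxcl9, Cxcl11 and Ccl5, but carried the most Cxcr3, 16.3 CPM, and 30.2 CPM of Cxcr6. Without it 2 members were called.

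Among primary tumours given anti-PD-1, 20 Gy raised Cxcl10, Cxcl11 and Ccl5, or 3 of 7 members against 6.06% of all genes called higher. Ccl5 rose 4.66-fold (log2 2.22, SE 0.46, adjusted p 0.00328), Cxcl11 6.67-fold (2.74, 0.61, 0.0059) and Cxcl10 4.22-fold (2.08, 0.51, 0.0106). Without 20 Gy number 7 the log2 fold change of Cxcl11 was 2.09. Cxcl9 differed 3.55-fold and did not pass by edgeR (adjusted p 0.0623), but passed by DESeq2 (adjusted p 0.0162), with all 48 tumours in the fit and on leaving out any of 4 of the 16 tumours. Its lowest, median and highest levels were 33.4, 89.4 and 373.8 CPM at 0 Gy and 24.4, 418.8 and 1353 CPM at 20 Gy, and the lowest value of all came from irradiated tumour number 5. All 7 members overlapped between doses. Cxcl16 (log2 0.60, adjusted p 0.168), Cxcr6 (0.20, 0.916) and Cxcr3 (-0.11, 0.941) did not pass. Beside these changes 3 of 10 macrophage genes (Cd68, Fcgr1 and Mertk) and 2 of 6 neutrophil genes (Csf3r and Retnlg) were called higher, and the mesenchymal gene Vim was called lower. All 8 muscle genes had positive log2 fold changes, with a median of 2.61 and 0 called by edgeR, and 0 of 14 T cell genes were called (median 0.14). Summed macrophage markers were at 1608 to 3268 CPM at 0 Gy and 848.2 to 6084 CPM at 20 Gy, and muscle at 72.2 to 6892 and 12.6 to 68642 CPM. Their part in the chemokine rise was not tested.

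The irradiated anti-PD-1 primary group had the widest span of the 8 groups from lowest to highest tumour for Cxcr6 (307.8-fold) and Cd3e (217.4-fold). Number 4 had 24.1 CPM of Cxcr6, 19.8 of Cxcr3 and 46.8 of Cd3e, the highest of all 48 tumours for Cxcr3 and Cd3e, and also 68642 CPM of muscle transcripts. Number 5 had 0.0782 CPM of Cxcr6, 24.4 of Cxcl9 and 0.215 of Cd3e. The count of members called for 20 against 0 Gy under anti-PD-1 was 3 or 4 when any 1 tumour was left out. Without number 4 the log2 difference of Cxcr6 in that comparison went from 0.20 to -1.48, and that between antibodies at 20 Gy from 0.96 to -0.715, so the sign of these uncalled values rests on 1 tumour.

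Anti-PD-1 without radiation gave no call. In the allografts all 7 log2 differences between anti-PD-1 and isotype at 0 Gy were positive, from 0.06 for Cxcl16 to 1.28 for Cxcl11, but 0 were called by edgeR or DESeq2 (adjusted p 0.9999 each, percent called over all genes 0), and 2, Cxcl9 and Cxcl11, had an unadjusted p below 0.05. Cxcl9 was at 859.9, 503.0, 1397 and 676.0 CPM under anti-PD-1, with 2 of the 4 tumours above the highest isotype tumour at 694.1 CPM. Among primary tumours at 0 Gy the differences were again all positive, from 0.29 for Cxcl16 to 1.28 for Cxcl9. By edgeR and by DESeq2 0 were called (percent called 0), and only Cxcl9 had an unadjusted p below 0.05 (2.43-fold, p 0.0428, adjusted p 0.9998). Most leukocyte marker lists leaned the same way, with 0 genes called by edgeR. T cell genes were positive in 13 of 14 cases in the allografts (median log2 difference 0.89) and 14 of 14 in the primary tumours (1.07). Macrophage genes were positive in 10 of 10 cases in the allografts and 7 of 10 in the primary tumours, neutrophil genes in 6 and 5 of 6, cDC1 genes in 6 of 6 in both, and B cell genes in 5 and 4 of 5. NK genes were positive in 5 of 6 cases in the allografts and 2 of 7 in the primary tumours. The part of these markers in the chemokine differences was not tested.

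At 20 Gy anti-PD-1 again gave 0 calls in each kind by edgeR and by DESeq2 (percent called 0 in each). The 1 member with an unadjusted p below 0.05 was Cxcr6 in the allografts, at 2.92-fold (log2 1.55, p 0.0114, adjusted p 0.682). It was at 7.28, 30.2, 33.0 and 5.82 CPM under anti-PD-1 against 6.37, 4.59, 9.40 and 4.99 CPM under isotype, so 2 of the 4 tumours were high and the other 2 lay within the isotype range. T cell genes were positive in 13 of 14 cases there (median log2 difference 0.76, 0 called by edgeR), and their part was not tested. For the primary tumours 0 members had an unadjusted p below 0.05 at 20 Gy, and the log2 differences ran from -0.31 to 0.96. The test of whether the dose effect differed by antibody gave 0 calls in each kind by edgeR and DESeq2 (percent called 0), with 0 unadjusted p below 0.05, so the dose effects under the antibodies were not shown to differ. The largest of these terms in the primary tumours was that of Cxcl9, -1.44 on the log2 scale (p 0.0988, adjusted p 0.971).

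**Figure D2:**
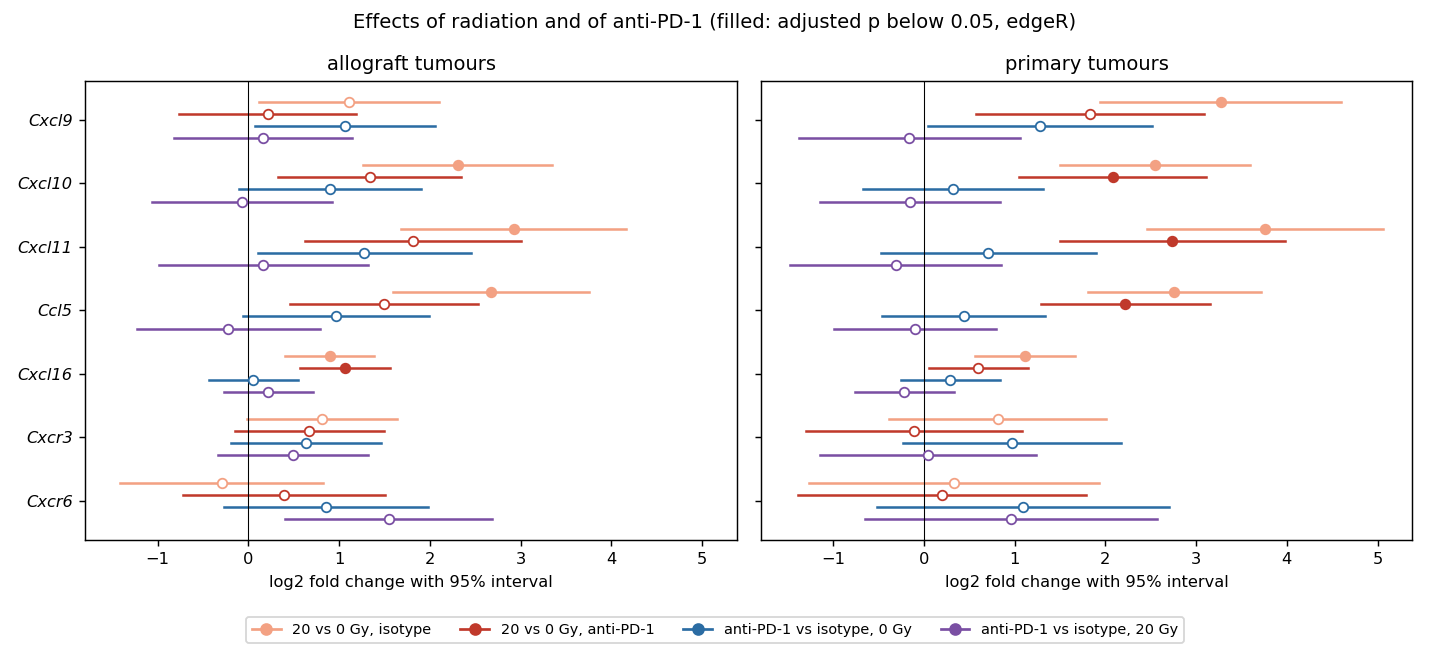
Log2 fold changes of the 7 genes with 95% intervals (horizontal axis) for 20 against 0 Gy under each antibody and for anti-PD-1 against isotype at each dose, in allografts (left) and primary tumours (right), with filled points for adjusted p below 0.05. The filled points are all dose effects on ligands, and Cxcl16 has the narrowest intervals.

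Radiation with anti-PD-1 was also compared with 0 Gy and isotype, which shares its control tumours with the comparisons above. In the allografts 5 of 7 members were called higher, against 7.43% of all genes: Cxcl11 at 8.51-fold (log2 3.09, SE 0.59, adjusted p 0.00476), Ccl5 at 5.48-fold (adjusted p 0.00681), Cxcl10 at 4.71-fold (adjusted p 0.00972), Cxcl16 at 2.17-fold (adjusted p 0.0072) and Cxcr3 at 2.47-fold (SE 0.39 on the log2 scale, adjusted p 0.0485). This was the only receptor call within a tumour kind, and it was lost on leaving out 5 of the 8 tumours in turn. Cxcr3 was at 6.34, 16.3, 9.40 and 7.96 CPM, all above the 2.17 to 5.76 CPM of the controls. Cxcl11, Ccl5 and Cxcl16 were likewise separated, as were 8.94% of all genes in this direction. Cxcl9 (2.42-fold, adjusted p 0.103) and Cxcr6 (2.38-fold, adjusted p 0.162) did not pass by edgeR, and Cxcl9 passed by DESeq2 (adjusted p 0.034) and without 0 Gy isotype number 3 (edgeR, adjusted p 0.0412). Beside them 5 of 6 NK genes, 6 of 10 macrophage genes, 3 of 6 cDC1 genes, the neutrophil gene Csf3r and the endothelial gene Kdr were called higher, and 0 of 14 T cell genes (edgeR, median log2 fold change 0.86). Summed NK markers were at 57.5 to 84.3 CPM in the controls and 87.7 to 177.4 CPM with the combination, and summed macrophage markers at 3107 to 6004 CPM, and their part in the rise was not tested. Ncr1 rose by 1.93 (adjusted p 0.00329) and Ifng differed by 1.73 (adjusted p 0.0652).

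The combination raised 5 of 7 members in the primary tumours, against 8.78% of all genes called higher. Cxcl11 rose 10.9-fold (adjusted p 0.000513), Cxcl9 8.63-fold (adjusted p 0.00172), Ccl5 6.32-fold (adjusted p 0.000374), Cxcl10 5.26-fold (adjusted p 0.0022) and Cxcl16 1.86-fold (adjusted p 0.0247). The log2 fold change of Cxcl11, 3.45, was 2.81 without 20 Gy anti-PD-1 number 7, and that of Cxcl10, 2.40, was 3.03 without 0 Gy isotype number 4. The Cxcl16 call was lost on leaving out 2 of the 16 tumours, 20 Gy anti-PD-1 numbers 3 and 4 (adjusted p up to 0.0765), and with only the 2 groups compared (0.0504). Cxcr3 (log2 0.86, adjusted p 0.34) and Cxcr6 (1.29, adjusted p 0.284) did not pass, and without 20 Gy anti-PD-1 number 4 Cxcr6 was at -0.386 and Cxcr3 at 0.022. Ifng itself passed here, at 6.33-fold (adjusted p 0.0302), as 1 of 10 inducer genes called higher of 15, led by Irf1, Tnf and Stat2. Of 14 other chemokines 5 were higher and of 13 other receptors 4, with Cx3cr1 lower. T cell genes gave 0 calls of 14 (edgeR, median log2 fold change 1.24), and 3 of 6 neutrophil genes (Csf3r, Retnlg and Cxcr2), 3 of 10 macrophage genes (Fcgr1, Mertk and Cd68) and 2 of 6 cDC1 genes (Irf8 and Batf3) were called higher. The 8 muscle genes all had positive log2 fold changes, with a median of 2.77 and 0 called by edgeR, and the mesenchymal gene Vim was lower. Summed macrophage markers ran from 1785 to 3573 CPM in the controls and from 848.2 to 6084 CPM with the combination. The part of these markers in the chemokine rise was not tested.

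Tumour kinds were compared within each treatment. At 0 Gy with isotype the primary tumours had lower Cxcl9, Cxcl16, Cxcr6 and Cxcl11 than the allografts, 4 of 7 members called where 3.99% of 17357 genes were called lower. Cxcl9 was 6.71-fold lower (log2 -2.75, SE 0.57, adjusted p 0.0102), Cxcr6 4.61-fold (log2 -2.21, adjusted p 0.0199), Cxcl11 3.98-fold (-1.99, 0.0392) and Cxcl16 1.97-fold (-0.98, 0.0105). Cxcl16 and Cxcr6 did not overlap between the kinds, as was the case for 2.89% of all genes in this direction. Ccl5 differed by -0.17 on the log2 scale, with an interval from -1.18 to 0.83 (adjusted p 0.851), and Cxcl10 (-0.89, 0.361) and Cxcr3 (-0.58, 0.365) did not pass. Without primary number 4 Cxcl10 was called lower (log2 -1.5, adjusted p 0.0296). The Cxcl11 call was lost on leaving out 8 of the 12 tumours in turn, and 2 members were called without allograft number 2.

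Cell type markers differed between the kinds as well. Of 14 T cell genes 7 were called lower in the primary tumours, with a median log2 fold change of -1.24 (Cd3e -1.78, adjusted p 0.0285; Cd8a -2.19, adjusted p 0.0283), and Ifng was lower by 2.86 on the log2 scale (log2 -2.86, adjusted p 0.0227). Irf1 was at -1.23 (adjusted p 0.00866). Of 6 neutrophil genes 2 were lower (Retnlg and Csf3r), whereas 2 of 7 NK genes (Klri2 and Klrb1c), 1 of 10 macrophage genes (Mrc1) and 3 of 8 mesenchymal genes (Col1a2, Fn1 and Pdgfrb) were higher. All 8 mesenchymal genes had positive and all 8 muscle genes negative log2 differences, with medians of 0.95 and -2.02. Summed T cell markers, in which Thy1 weighs most, were at 219.9 to 374.8 CPM in the allografts and 172.9 to 683.6 CPM in the primary tumours. Summed NK markers were lower in the primary tumours, with a median of 27.28 CPM against 71.66 CPM in the allografts, and the kinds overlapped. Yet 5 of 7 NK genes had positive log2 differences. The part of these markers in the chemokine difference was not tested. All 8 primary tumours of this comparison had the identifier digit 4 and all 4 allografts the digit 5, so tumour kind and whatever the digit records cannot be told apart here.

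With anti-PD-1 at 0 Gy the kinds again differed in 4 of 7 members (3.99% of all genes called lower), with Cxcl11 5.82-fold (adjusted p 0.00617), Cxcl9 5.70-fold (0.0173), Cxcr6 3.89-fold (0.0449) and Cxcl10 2.74-fold lower (0.0369) in primary tumours. Cxcl9, Cxcl10 and Cxcl11 did not overlap between the kinds, as was so for 2.8% of all genes in this direction. Of 14 T cell genes 5 were lower (median log2 difference -1.27), of 6 cDC1 genes 1 (Irf8), and of 8 mesenchymal genes 2 were higher (Col1a2 and Fn1), and their part was not tested. The identifier digit was 5 in 3 of these 4 allografts and 4 in 7 of the 8 primary tumours, so kind and digit were largely confounded here too. The Cxcr6 call was lost on leaving out 10 of 12 tumours in turn and the Cxcl10 call on 8, and without allograft number 3 only Cxcl11 was called. Cxcl16 did not pass (log2 -0.72), but was called without allograft number 4 or primary number 4 (adjusted p down to 0.0298). After 20 Gy with isotype 0 members were called by edgeR or DESeq2 where 4.76% of all genes were, 3 (Cxcl11, Cxcl16 and Cxcr6) having an unadjusted p below 0.05. The log2 differences ran from -0.02 for Ccl5 to -1.52 for Cxcr6. After 20 Gy with anti-PD-1 0 members were called by edgeR (percent called 0.00566), 1 by DESeq2 (Cxcl16), and 1 at an unadjusted p below 0.05 (Cxcl16, log2 -1.21, adjusted p 0.147).

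Whether the dose effect itself differed between the kinds was tested with all 48 tumours in 1 fit. By edgeR and DESeq2 0 members were called for the dose effect under isotype (percent called 0.00517), the dose effect under anti-PD-1 (0), the antibody effect at 0 Gy (0) or the combination (0). The 1 member with an unadjusted p below 0.05 for the dose effect under isotype was Cxcl9, whose rise was larger in the primary tumours by 2.18 on the log2 scale (p 0.0262, adjusted p 0.486). A Cxcl9 rise that passed in the primary tumours and not in the allografts was thus not shown to differ between them.

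The makeup of the CXCR3 ligands, taken as the share of each in the sum of Cxcl9, Cxcl10 and Cxcl11 per kb, is given as a description. Cxcl9 made up a median of 64.1% in the allografts at 0 Gy with isotype, 65.1% with anti-PD-1, 46.2% after 20 Gy with isotype and 51.8% after both. The medians of the primary tumours in the same order were 32.4, 49.4, 43.1 and 36.5%. At 0 Gy with isotype Cxcl9 exceeded 50% in 4 of 4 allografts and 0 of 8 primary tumours. Cxcl11 stayed a minor part, with group medians from 1.70 to 5.91%. The ratio of Cxcl10 to Cxcl9 changed 2.18-fold with 20 Gy in the isotype allografts (exact permutation test, 2-sided p 0.0571, adjusted p 0.152 over 16 ratio tests chosen after values were seen) and 0.710-fold in the isotype primary tumours (exact p 0.277, adjusted p 0.443), and passed in neither. Under anti-PD-1 it changed 1.77-fold in the allografts (exact p 0.0857, adjusted p 0.171) and 1.28-fold in the primary tumours (exact p 0.594, adjusted p 0.679), again without passing.

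Ccl5 and both receptors were then set against Cd3e, since T cells can make all of them. In the isotype primary tumours the ratio of Ccl5 to Cd3e had a median of 6.74 at 0 Gy and 42.8 at 20 Gy. Folds and tests of these ratios are of mean log2 values, not of the medians, and by that measure the ratio was 5.82-fold higher (exact permutation test, 2-sided p 0.000155, adjusted p 0.00249). The ratios were chosen after values were seen. Ccl5 was already called higher in this comparison and Cd3e was not called, so the test repeats the Ccl5 call and adds no separate support. In the primary tumours given anti-PD-1 the medians were 2.84 and 49.0 (10.5-fold by mean log2 values, exact p 0.00684, adjusted p 0.0547). That fold ran from 7.76 to 15.6 on leaving out each tumour in turn. The highest ratio, 354 in irradiated number 5, was over a Cd3e of 11 counts. In the allografts the ratio was 6.397-fold higher under isotype and 3.61-fold under anti-PD-1 at an exact p of 0.0286, the smallest that 4 against 4 tumours allow (adjusted p 0.0914 each). Without irradiated number 1 of each group, the highest at 57.5 and 30.5, these folds were 4.19 and 2.34 (exact p 0.0571, the smallest that 3 against 4 allow). The ratio of Cxcr6 to Cd3e passed in none of the 4 dose comparisons (0.813 to 1.53-fold). The ratio of Cxcr3 to Cd3e was 1.92- and 2.19-fold higher in the allografts (exact p 0.0857 and 0.0286, adjusted p 0.171 and 0.0914) and 0.955- and 1.26-fold in the primary tumours, with no ratio passing.

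**Figure D3:**
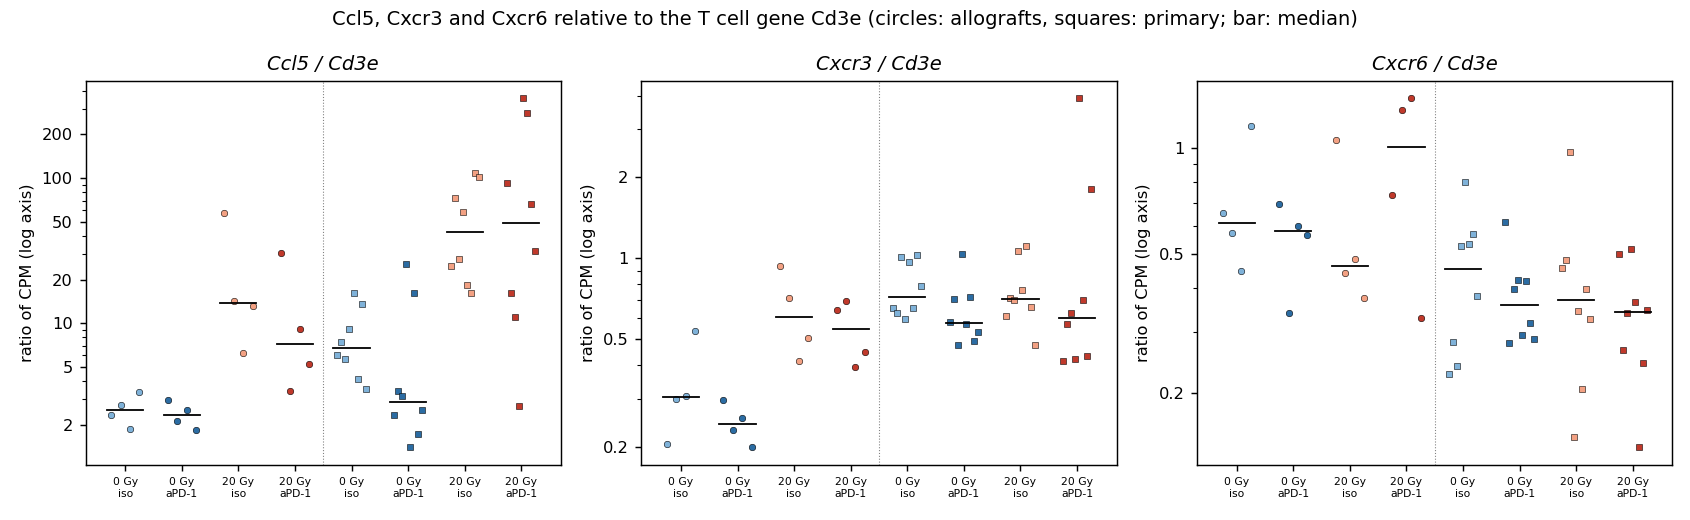
Ratio of Ccl5, Cxcr3 and Cxcr6 to the T cell gene Cd3e in each tumour (CPM ratio, log axis), by group, with circles for allografts, squares for primary tumours and a bar at the group median. The median Ccl5 ratio is higher at 20 Gy for each kind and antibody, but the dose comparison passed only in isotype primary tumours (medians 42.8 against 6.74). In anti-PD-1 primary tumours the doses overlap for Ccl5, with 20 Gy down to 2.699 and 0 Gy up to 25.61. The Cxcr6 ratio overlaps throughout.

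Tumours of the same group differed among themselves, and members were related to partners over that variation. Relations were computed on log2(CPM + 0.5) with the group means removed, over 32 primary tumours and 16 allografts separately, with 100000 permutations within groups and adjustment over 22 relations, of which 9 passed. Cxcl9 followed Ifng in primary tumours (r 0.794, rho 0.819, adjusted p 7.33e-05, permutation test) and in allografts (r 0.848, rho 0.735, adjusted p 0.00194), and r was positive in 4 of 4 groups of each kind. Leaving out the 2 tumours farthest in Cxcl9 gave 0.759 and 0.799. Ifng had few counts, 1 to 17 in the primary tumours given 0 Gy and isotype, so counting error weighs on its relations. Cxcl10, the neighbour of Cxcl9, did not pass with Ifng (r 0.217, adjusted p 0.426, in primary tumours and r 0.445, adjusted p 0.194, in allografts). Its r was positive in 3 of 4 groups of each kind, from -0.0454 to 0.825 over the primary and from -0.869 to 0.999 over the allograft groups, and whether the relations of the neighbours differ was not tested.

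The receptors followed the T cell gene. Cxcr3 and Cd3e had r 0.927 (rho 0.927, adjusted p 7.33e-05, permutation test) in primary tumours and 0.762 (rho 0.794, adjusted p 0.00751) in allografts. Cxcr6 and Cd3e had r 0.915 (rho 0.874) and 0.633 (rho 0.65, adjusted p 0.0115). Without the 2 farthest tumours the values were 0.903, 0.732, 0.878 and 0.567. Ccl5 did not pass with Cd3e (r 0.175, adjusted p 0.501, in primary tumours and r 0.0539, adjusted p 0.893, in allografts). Without the 2 farthest tumours these were 0.0468 and 0.545, and in the allografts r ran from -0.915 to 0.964 over the 4 groups, so that the allograft value rests on few tumours.

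Ligand and receptor were related for some pairs in the primary tumours. Cxcl9 and Cxcr3 had r 0.577 (rho 0.594, adjusted p 0.00751, permutation test; 0.593 without the 2 farthest), positive in 4 of 4 groups. Cxcl16 and Cxcr6 had r 0.742 (rho 0.691, adjusted p 0.000165; 0.672 without the 2 farthest), positive in 3 of 4. The pairs Cxcl10 with Cxcr3 (r -0.0486) and Cxcl11 with Cxcr3 (0.276) did not pass. In the 16 allografts none of the ligand-receptor pairs passed (Cxcl9 with Cxcr3 r 0.251, adjusted p 0.501, Cxcl16 with Cxcr6 r 0.43, adjusted p 0.347). Without the 2 farthest allografts these were 0.606 and 0.511, so the low value of Cxcl9 with Cxcr3 rests on 2 tumours, and a difference between the kinds was not tested. Cxcl16 and the macrophage gene Adgre1 had r 0.611 (rho 0.397, adjusted p 0.00751) in primary tumours, which fell to 0.344 without the 2 farthest tumours and so rests on them.

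**Figure D4:**
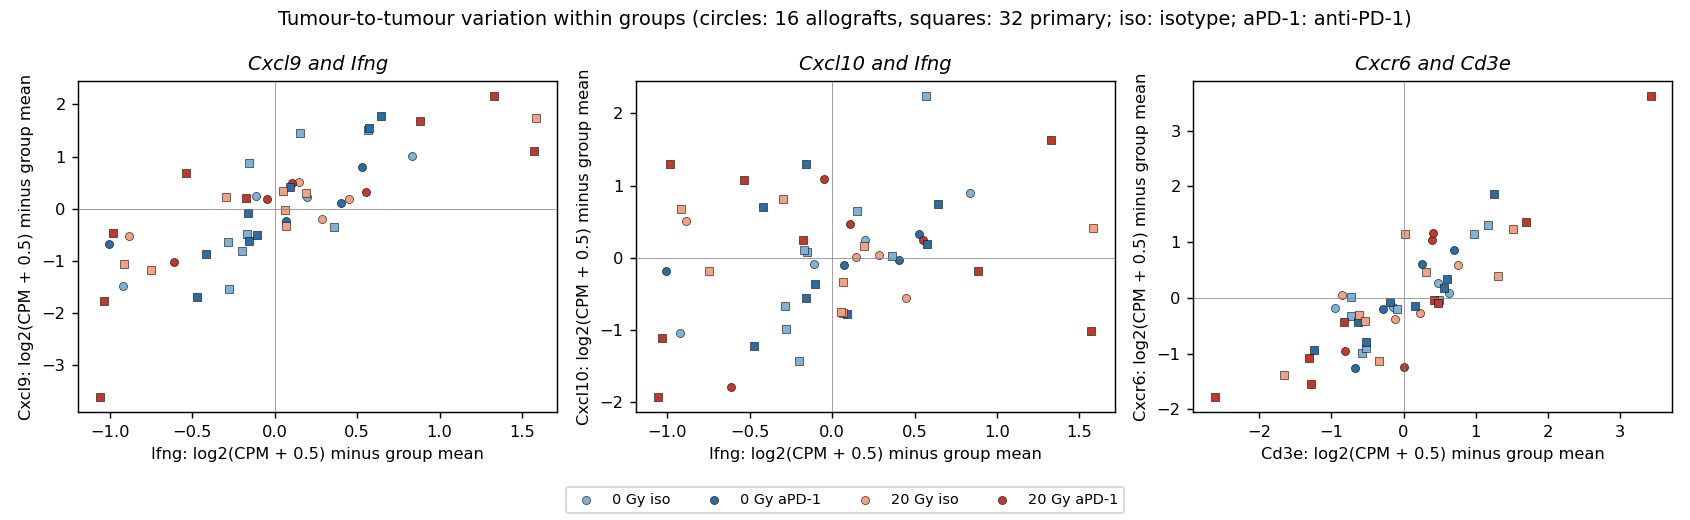
Within-group deviations, log2(CPM + 0.5) minus the group mean, of Cxcl9 against Ifng, Cxcl10 against Ifng and Cxcr6 against Cd3e, with circles for 16 allografts and squares for 32 primary tumours, coloured by treatment. Cxcl9 climbs with Ifng and Cxcr6 with Cd3e. Cxcl10 did not pass with Ifng (r 0.217 in primary tumours and 0.445 in allografts), and whether its relation differs from that of Cxcl9 was not tested.

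As a description over all 48 tumours with group means removed, the members varied together to unequal degrees. Cxcl11 went with Cxcl10 (r 0.78), Ccl5 (0.78) and Cxcl9 (0.75), and Cxcl10 with Ccl5 (0.70) and Cxcl9 (0.58). Cxcr3 went with Cxcr6 (0.82). Cxcl16 went with Cxcl11 (0.70), Cxcr6 (0.69) and Cxcr3 (0.61), and Cxcl9 with Cxcr6 (0.60), so that these ligands varied with receptors as well as with ligands. Cxcl10 was near 0 with both receptors over the 48 tumours (-0.08 with Cxcr3, 0.03 with Cxcr6), but with Cxcr3 its r ran from -0.992 to 0.829 over the allograft groups and from -0.404 to 0.851 over the primary groups, each kind having 2 of 4 groups positive. All these points share their library, its depth and its mixture of cells.

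**Figure D5:**
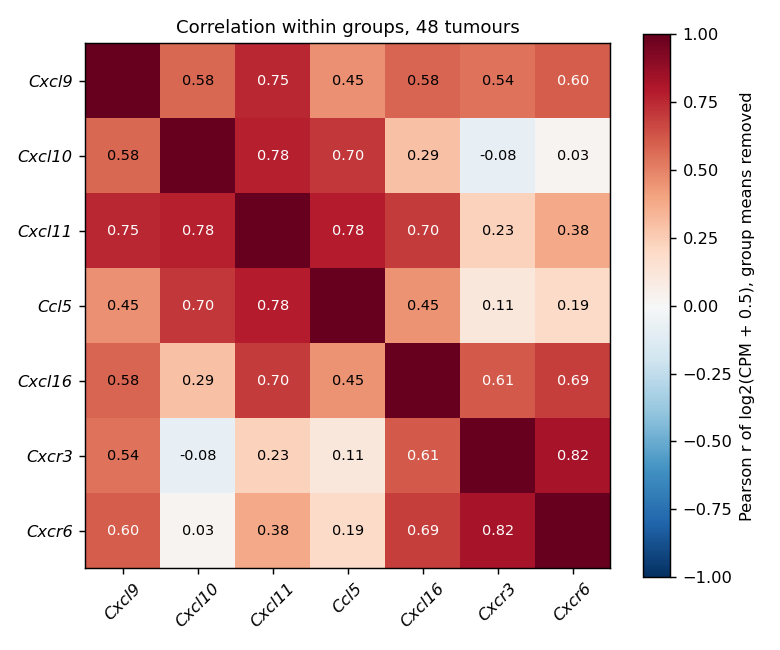
Pearson r between each pair of the 7 genes over 48 tumours, from log2(CPM + 0.5) with group means removed. Cxcl10, Cxcl11 and Ccl5 go together (0.70 to 0.78), as do Cxcr3 and Cxcr6 (0.82), and Cxcl10 is near 0 with both receptors.

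The genes most like each member in the same measure, the top 5 of 14399 with a mean of at least 1 CPM, were taken as a description. For Cxcl9 they were Iigp1 (r 0.932), Gbp6 (0.928), Gm12185 (0.925), Igtp (0.925) and Gbp4 (0.923), mostly interferon-inducible GTPase genes. For Cxcl10 they were Gbp3 (0.866), Bst2 (0.834), Ube2l6 (0.833), Dhx58 (0.832) and Ifi44 (0.83). For Cxcl11 they were Cd69 (0.847), Ifi47 (0.838), H2-T22 (0.829), Psmb8 (0.804) and Pnp (0.793). For Ccl5 they were Cxcl11 (0.783), Acod1 (0.735), H2-T22 (0.705), Cxcl10 (0.705) and B2m (0.688), which include Cxcl11 and Cxcl10 and antigen presentation genes.

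The receptors' closest genes were T cell genes. Those of Cxcr3 were Cd27 (0.94), Ltb (0.938), Ubash3a (0.935), Cd2 (0.934) and Cd3g (0.927), and those of Cxcr6 were Cd8a (0.929), Cd3d (0.923), Cd8b1 (0.921), Cd3g (0.918) and Themis (0.901). Cxcl16 was closest to genes of myeloid and other leukocytes, Cd52 (0.931), Cd300c2 (0.918), Cd86 (0.907), Fcer1g (0.895) and Bcl2a1d (0.893).

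Opposite-strand neighbours could add reads to some members, because whether counting used strand is not given in the sources used here. Cxcl10 shares exonic bases with Art3, which was at 1.15 to 10.8 CPM in allografts and 0.489 to 61.0 CPM in primary tumours. Cxcl16 shares 552 bases with Zmynd15 (21.5 to 116.2 and 8.60 to 64.9 CPM), and Cxcl11 shares 1582 with Gm2673, which had at most 1 count in an allograft and 13 in a primary tumour. Cxcr6 lies within Fyco1 but shares no exonic base with it.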

How the data were processed

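Messenger RNA of 48 mouse sarcomas was measured by strand-specific, poly(A)-selected RNA-seq (KAPA), with RNA taken forward above an integrity number of 7, per the labels' protocols. The authors deposited 1 table of whole-number read counts per Ensembl gene (36854 genes, 36796 named from GENCODE M21), with 0 columns of unlisted samples. The submitters' processing notes name Trimmomatic 0.36, STAR, HTSeq and mm10, with no settings. Neither the strand setting nor the version of STAR is given in the sources used here. Counts belong to a table that its name ties to a first run.

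Groups came from the labels, and replicate numbers follow accession order and pair nothing. Low-count genes were removed with filterByExpr by group. TMM scaling and edgeR's quasi-likelihood F test were run on the counts of the 4 groups of a kind (17746 genes in allografts, 17770 in primary tumours), of the 2 groups for comparisons between kinds (17357 to 17674), or of all 48 tumours for interactions with kind (19327), with Benjamini-Hochberg adjustment over all genes. SE is the log2 fold change divided by the square root of F. Levels use TMM factors of all 48 tumours, and levels per kb the union of a gene's exons. Motif matches, ratios and relations are as described in the text. Alternatives were DESeq2's test, its size factors, no filter, only the 2 groups compared, all 48 tumours in the fit, a term for the identifier digit, a pseudocount of 0.1, and leaving out each tumour.

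The members, the gene lists and the rules for naming genes were chosen with earlier results of these data known. The rule names the 7 members and the partners Ifng, Cd3e, Cd8a, Ncr1, Adgre1, Xcr1 and Irf1, up to 3 called genes of each other list in a direction, and the 5 genes most like each member. Adam10, Art3, Zmynd15, Gm2673 and Fyco1 and some further list genes were named after their values were seen. Further partners and relations are not reported here. Xcr1, a cDC1 receptor gene, was called in no comparison within a tumour kind. Where the labels do not say that tumours came from separate mice, p-values measure the spread between these samples. DESeq2 1.42.0, edgeR 4.0.16 and limma 3.58.1 ran under R 4.3.3. Permutations, levels and figures used Python 3.11.15, scipy 1.17.1, pandas 2.3.3, matplotlib 3.10.9 and numpy 2.4.6.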

Additional observations from a re-analysis of the deposited data

Results flagged for a closer look

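In groups of 4 or 8 tumours, the highest or lowest tumour was tested for standing apart from the others of its group (Dixon's test). Of 56 combinations of member and group 11 had such a tumour, and these combinations share tumours. The test was run on CPM, not on log2 values. Its chance rate of about 1 in 20 (5 percent) holds for normally distributed values. With CPM skewed upward the 11 cannot be read against that rate. In each case the tumour was the highest of its group.

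Primary tumour number 4 of 0 Gy with isotype stood apart for Cxcl10 (295.4 CPM, next 97.5), Cxcl11 (12.3 CPM, next 5.61) and Ccl5 (72.9 CPM, next 35.6). Primary tumour number 5 of 20 Gy with isotype stood apart for Cxcl9 (1592 CPM, next 606.7) and Cxcl11 (138.6 CPM, next 72.0). Primary tumour number 7 of 20 Gy with anti-PD-1 stood apart for Cxcl11 (162.5 CPM, next 54.7). The receptors stood apart together. Primary tumour number 1 of 0 Gy with anti-PD-1 had 11.2 CPM of Cxcr3 (next 6.302) and 11.9 of Cxcr6 (next 3.83), and number 4 of 20 Gy with anti-PD-1 had 19.8 of Cxcr3 (next 8.63) and 24.1 of Cxcr6 (next 4.66). Among the allografts, tumour number 1 of 20 Gy with isotype had 485.9 CPM of Cxcl16 (next 313.6). Without primary number 4 of 0 Gy with isotype the log2 fold change of Cxcl10 for 20 Gy under isotype went from 2.55 to 3.19, and without number 7 of 20 Gy with anti-PD-1 that of Cxcl11 for 20 Gy under anti-PD-1 went from 2.74 to 2.09.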

How the results depend on the processing

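No paired analysis was possible because the replicate numbers were given in accession order and pair no tumours. In the primary tumours under 20 Gy with isotype 5 members were called under every alternative run. For 20 against 0 Gy under isotype the allograft count of 4 became 2 with all 48 tumours in the fit (Cxcl11 and Ccl5), 0 with the identifier digit as a term, and 1 to 4 on leaving out each tumour, the 1 (Ccl5) without 0 Gy isotype number 4 and 2 without number 1 or number 2. Under anti-PD-1 the allograft count of 1 became 4 by DESeq2, 0 with only the 2 groups compared, 0 with all 48 tumours, and 0 to 2 on leaving out each tumour (0 without 0 Gy number 2 or number 4 or 20 Gy number 3, 2 without 20 Gy number 2). For the allograft combination the 5 became 3 with only the 2 groups compared, 3 with all 48 tumours, and 4 to 6 on leaving out each tumour. Between kinds at 0 Gy the 4 under isotype became 2 to 5 on leaving out each tumour, and the 4 under anti-PD-1 became 2 with all 48 tumours (Cxcl9 and Cxcl11) and 1 to 4 on leaving out each tumour (2 without allograft number 1 or any of primary numbers 3, 5, 7 and 8). At 20 Gy with anti-PD-1 the 0 became 1 by DESeq2 and 1 with all 48 tumours (Cxcl16). The causes were not tested, beyond fewer or more tumours in the fit. No alternative turned the direction of a called member, and 9 of 22 relations passed with a pseudocount of 0.1 and with DESeq2 size factors. The remaining counts of members stayed within 1.5 times. The digit was not used as a term between the kinds. With 4 allografts a group, a member needed a change well beyond the spread between tumours to be called. Within the primary tumours Cxcr6, at under 1 CPM in some, had the largest SE of the 7 members in each comparison.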
